A study of Mus musculus with 18 samples.

Results

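The genes examined were 36 genes of the protein folding machinery in mouse CD4 T cells: heat shock factor 1, cytosolic heat shock proteins and their partners, mitochondrial chaperones, subunits of the cytosolic chaperonin, and chaperones and folding enzymes of the endoplasmic reticulum (ER). The genes were chosen by name from these families, and 36 of 36 were found in the count tables of all 18 libraries, among 37991 genes, and all 36 passed the filter on low counts. The cells came from the spleens of Tg4-H2u mice aged 6 to 12 weeks, which carry a transgenic T cell receptor specific for a myelin basic protein peptide, and were obtained with a magnetic enrichment kit. RNA-seq was done on 6 groups of 3 libraries each, which the study describes as biological replicates.

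Mice were either not tolerized (naive, N) or tolerized (T) by earlier injections of the 4Y peptide under the skin, in rising amounts. For N0 the study describes PBS vehicle on the same schedule. Untreated cells (N0 and T0) were taken 2 h after a last injection of PBS. Antigen-treated cells (NAg and TAg) were taken 2 h after a last injection of 80 µg of the peptide. The third pair of groups (NPI and TPI) was stimulated in culture for 2 h with 20 ng/ml of the phorbol ester PMA and 2 µM of the calcium ionophore A23187, together called PI, which act downstream of the receptor. The model is a single transgenic receptor, antigen acted in the whole animal, and PI acted on isolated cells, so in comparisons of PI with the other treatments the agent and the time in culture cannot be told apart.

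Molecular chaperones bind unfolded or partly folded proteins and help them reach their final shape. In the cytosol, HSP70 chaperones work with HSP40 (J domain) partners that bring substrates and with nucleotide exchange factors that release them, HSP90 matures signalling proteins, and the ring-shaped chaperonin TRiC folds actin, tubulin and other proteins inside a chamber. HSF1 is the transcription factor of the heat shock response and binds heat shock elements, repeats of the letters GAA in alternating orientation. In the ER, the HSP70 member BiP (Hspa5) and the lectins calnexin and calreticulin retain unfinished secretory proteins, protein disulfide isomerases form their disulfide bonds, and the unfolded protein response, with the factor XBP1, raises the supply of these proteins.

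Promoter sequences are shown first because they mark which members share the letters of a control element. RefSeq promoters on GRCm38.p6, from 250 bases before to 50 bases after each start, were at hand for 29 of the 36 members (37 promoters). Hsf1, Hspa8, Hsp90aa1, Hsp90ab1, Hspa9, Hspa13 and Cct4 had none. The promoters were searched on both strands for 4 sets of letters. The heat shock element (GAA, any 2 bases, TTC, any 2 bases, GAA) was in promoters of 3 members, Hspd1, Hspe1 and Hsph1, and in 0.603% of all 32851 promoters of the same length. The ER stress element (CCAAT, any 9 bases, CCACG) was in those of 7 members, Calr, Canx, Creld2, Dnajc3, Hsp90b1, Hspa5 and Pdia6, and in 0.119% of all promoters. The letters TGACGTGG were in 0 member promoters and in 0.676% of all, and CCAAT, which is also the first part of every ER stress element, was in those of 21 members and in 37.4% of all. A match describes the letters in this window and does not show that a factor binds there. Only exact matches were counted and variants were not searched for. A member without a match, such as Hspa1a, Hspa1b or Dnajb1, is therefore not shown to lack an element.

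Hspd1 and Hspe1, which encode the mitochondrial chaperonin HSP60 and its lid HSP10, lie head to head, and their promoters overlap on opposite strands. Of the 2 Hspd1 promoters in the table, the 1 shown is chr1:55087883-55088182 on the minus strand, and the other, chr1:55088194-55088493, held no heat shock element. In the promoter shown, the capitals mark 2 overlapping heat shock elements on opposite strands, at positions -144 to -127 from the Hspd1 start. In the Hspe1 promoter, chr1:55087898-55088197 on the plus strand, the same letters stand at -89 to -72. The Hspa5 promoter is chr2:34771840-34772139 on the plus strand, with its ER stress element in capitals at -65 to -47.
Hspd1 promoter: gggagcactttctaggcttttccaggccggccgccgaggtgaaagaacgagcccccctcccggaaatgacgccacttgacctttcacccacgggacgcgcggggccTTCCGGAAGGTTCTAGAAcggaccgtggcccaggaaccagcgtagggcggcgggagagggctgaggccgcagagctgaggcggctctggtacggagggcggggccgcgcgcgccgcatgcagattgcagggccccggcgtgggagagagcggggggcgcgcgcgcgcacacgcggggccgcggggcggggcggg
Hspa5 promoter: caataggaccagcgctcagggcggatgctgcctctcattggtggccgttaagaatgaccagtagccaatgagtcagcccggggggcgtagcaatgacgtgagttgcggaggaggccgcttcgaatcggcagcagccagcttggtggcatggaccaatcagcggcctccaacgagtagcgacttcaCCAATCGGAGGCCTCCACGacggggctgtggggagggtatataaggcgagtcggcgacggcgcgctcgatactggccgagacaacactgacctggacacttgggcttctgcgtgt

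The matches in the other promoters are given with 5 bases on each side, read along the strand that holds the motif, with the fixed letters of the motif in capitals. Hsp90b1 held 2 ER stress elements in its promoter and the other 6 members 1 each.
Hsph1 heat shock element: gaggaGAActTTCcaGAAtctgc
Calr ER stress element: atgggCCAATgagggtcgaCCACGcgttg
Hsp90b1 ER stress element, first: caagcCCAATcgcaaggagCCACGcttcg
Hsp90b1 ER stress element, second: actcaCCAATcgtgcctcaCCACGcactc
Canx ER stress element: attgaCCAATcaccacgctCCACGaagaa
Pdia6 ER stress element: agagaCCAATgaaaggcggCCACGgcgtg
Dnajc3 ER stress element: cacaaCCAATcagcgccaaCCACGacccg
Creld2 ER stress element: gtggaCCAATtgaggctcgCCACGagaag

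Total counts per library were 10758571 to 13559974 outside the PI groups and 14895843 to 24119489 in them. The 10 T cell markers were above 0 in every library, but their summed normalized count differed between treatments. It was 38211 to 40081 in N0, 24813 to 28446 in NAg and 63486 to 70118 in NPI. In tolerized cells it was 33035 to 39195 in T0, 28866 to 33079 in TAg and 69897 to 73448 in TPI. Neutrophil markers moved with tolerance: the summed normalized count of 13 markers was 95.2 to 230 in N0 and 2141 to 3638 in T0, 153 to 431 in NAg and 2512 to 4533 in TAg, and 81.1 to 205 in NPI and 516 to 865 in TPI. The sum of 11 erythroid markers was 36.5 to 218 in N0 and 253 to 2473 in T0, and that of 12 macrophage and monocyte markers 652 to 873 and 1430.0 to 1827. Of the 13 neutrophil markers, 0 were at 0 in any T0 or TAg library and at most 7 in any other. The part of these cells in the results below was not tested beyond a fit with marker scores as covariates, and its effect is given where it ends a call of tolerized against naive cells. By Xist and Y-linked reads, the N0 and NAg libraries were all female and the NPI and TPI libraries all male, while T0 replicates 1 and 2 and TAg replicate 3 were male and the other 3 of T0 and TAg were female. In naive cells, PI and sex therefore cannot be told apart. Replicate 1 of N0 stood apart for 3 members, Hspa1a, Hspa1b and Hsph1. Its sum of 7 B cell markers was 1846, where N0 replicates 2 and 3 had 348 and 452 and T0 replicate 1 had 2691. Because all groups share 1 estimate of the spread, N0 replicate 1 also enters comparisons that do not use N0, and counts without it are given for each comparison.

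In untreated naive cells the most abundant members, as the group mean of CPM per kb of exon, were Hsp90ab1 at 243.6, Hspa8 at 157.2, Hspa5 at 96.8 and Cct2 at 78.7, and the lowest was the co-chaperone gene Bag3 at 1.58. The median level over the 36 members on this scale was 27.0 in N0, 68.4 in NAg, 41.3 in NPI, 22.0 in T0, 75.3 in TAg and 42.0 in TPI. Summed in each library, the 36 genes held 0.550% to 0.714% of all counts in N0 and 1.39% to 1.59% in NAg. In tolerized cells they held 0.569% to 0.572% in T0 and 1.48% to 1.61% in TAg. After PI the share was 0.787% to 0.829% in NPI and 0.710% to 0.715% in TPI. Both antigen groups thus stood above every other library, with the PI groups between them and the untreated groups, apart from N0 replicate 1, whose 0.714% lay just below the highest TPI share.

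**Figure D1:**
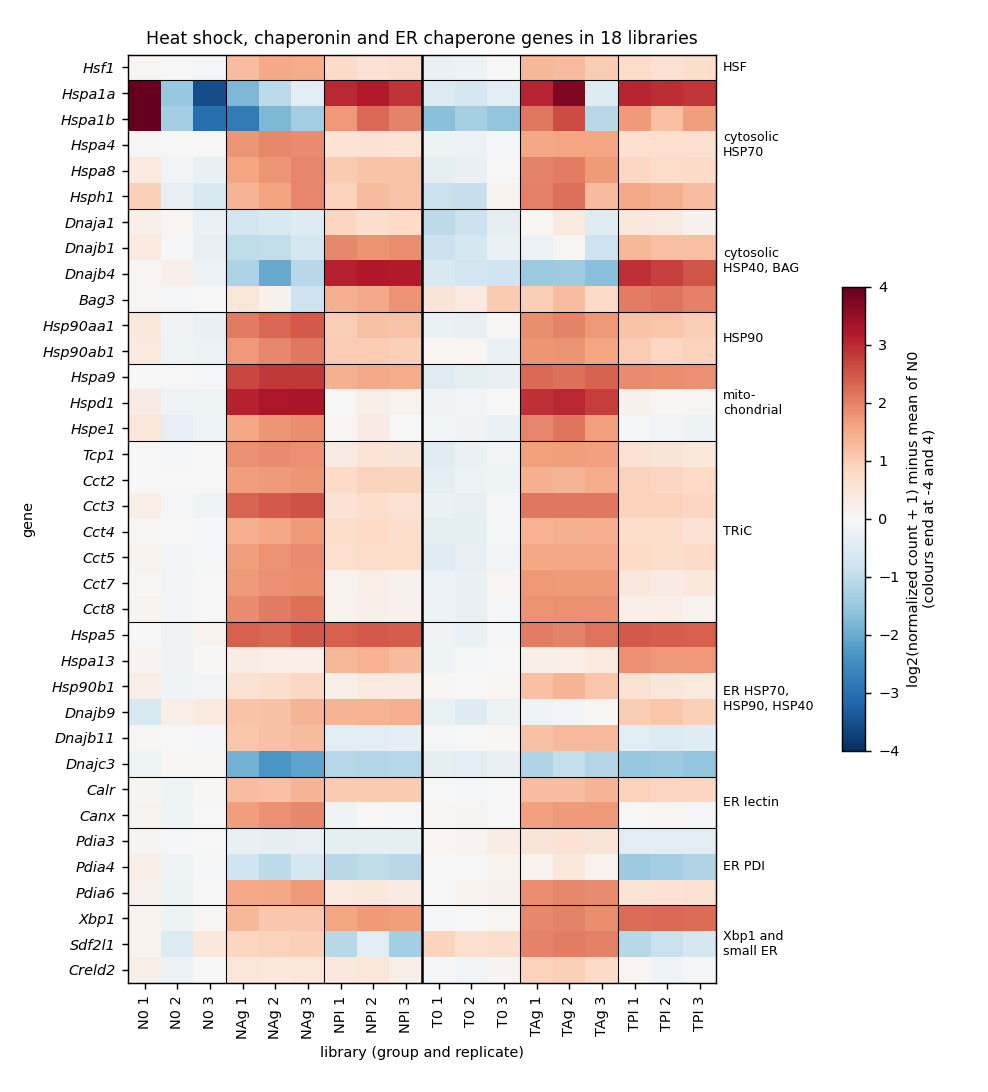
Colours show, for each of the 36 genes (rows, ordered by role) in each of the 18 libraries (columns, by group), log2(normalized count + 1) minus the mean of the 3 N0 libraries, with colours limited at -4 and 4. Most rows are raised in the 6 antigen libraries, Dnajb4 is raised in the 6 PI libraries, and Hspa1a and Hspa1b are high in N0 replicate 1.

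The first comparison asks how antigen in the animal changed these genes in naive and in tolerized cells. A gene is said to have passed where the edgeR quasi-likelihood test gave a Benjamini-Hochberg adjusted p under 0.05 over 17240 tested genes. In NAg against N0, 27 of 36 members rose and 8 fell, where 32.1% and 33.4% of all tested genes did. Without N0 replicate 1, 27 rose and 6 fell. In TAg against T0, 28 members rose and 2 fell, where 29.9% and 29.8% of all genes did. When N0 replicate 1 was left out of this fit, 31 rose, with Hspa1a, Hspa1b and Dnajb9 added, and 2 fell. Of the calls with all libraries, 23 members in naive cells and 24 in tolerized cells rose at least 2-fold (19.5% and 15.4% of all genes). The median log2 fold change of the members was 1.46 in naive and 1.71 in tolerized cells, against 0 and -0.05 over all tested genes. The same 26 genes rose in both comparisons, which share no library. These counts come from whole enriched populations, in which fewer cells of a type and less RNA per cell cannot be told apart.

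Hsf1, the gene of the heat shock factor itself, had normalized counts of 800.4, 744 and 727 in N0 replicates 1, 2 and 3 and 1775, 2179 and 2102 in NAg (values are given in replicate order throughout, each divided by its library's relative size). In tolerized cells they were 629, 654 and 748 in T0 and 1900.1, 1828 and 1522 in TAg. Every antigen library lay above every untreated one, with a log2 fold change of 1.41 ± 0.09 (adjusted p = 1.03e-12) in naive and 1.37 ± 0.09 (adjusted p = 3.13e-12) in tolerized cells, where ± gives the standard error throughout.

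The largest rises with antigen that passed with all libraries were those of the mitochondrial chaperone genes Hspd1 and Hspa9. Hspd1 (HSP60; chr1:55134679-55145087 on NCBIM37, minus strand) had normalized counts of 1025, 723 and 718 in N0 and 6794, 7667 and 7724 in NAg. In tolerized cells it had 728, 751 and 814 in T0 and 6181, 6589.6 and 5571 in TAg. The lowest antigen library was over 5 times the highest untreated one, and the log2 fold changes were 3.17 ± 0.11 (adjusted p = 1.84e-16) and 3.00 ± 0.11 (adjusted p = 7.66e-16). Hspa9, the mitochondrial HSP70 that draws proteins into the matrix, had 1666, 1691 and 1609 in N0 and 10569, 11641 and 11815 in NAg. Its counts were 1191, 1258 and 1348 in T0 and 8039, 7678 and 8509.8 in TAg, again without overlap, with log2 fold changes of 2.78 and 2.67. Hspe1 rose by 1.70 and 2.08 on the log2 scale. Hspd1 and Hspe1 share 112 bases of exon on opposite strands, and 42.3% of the 64-base windows of Hspd1 also occur elsewhere in the genome. The same share was 52.4% for Hsp90aa1 and 33.6% for Hspa8. Dnaja1, Tcp1 and Hsp90b1 share 608, 571 and 415 bases of exon with genes on the opposite strand. The counts of these genes are uncertain to that extent.

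All 7 measured TRiC subunits rose in both states, each by more than 2-fold. Cct3 had 1773, 1401 and 1334 in N0 and 7553, 8131 and 8743 in NAg, and 1243, 1179 and 1420.4 in T0 and 6426, 6429 and 6502 in TAg. Its log2 fold changes of 2.44 ± 0.09 (adjusted p = 2.36e-17) and 2.33 ± 0.09 (adjusted p = 9.77e-17) were the highest of the complex. In naive cells the other 6 followed with 2.06 for Cct8, 1.85 for Tcp1, 1.80 for Cct7, 1.78 for Cct5, 1.71 for Cct2 and 1.56 for Cct4. In tolerized cells these 6 lay between 1.69 (Cct4) and 2.02 (Cct8). The estimates thus differed among the subunits of the ring, with Cct3 at the high end in both states. Cct4 was lowest in naive cells, and in tolerized cells Cct4 and Cct2 were level, at 1.66 and 1.66 without N0 replicate 1. Differences between subunits were not tested.

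In the cytosol, HSP90 and the constitutive HSP70 genes rose. Hsp90aa1, the inducible HSP90, had 4036, 2749.8 and 2479 in N0 and 12797, 14711 and 16456 in NAg. It had 2489.9, 2421 and 3133 in T0 and 10968, 12023 and 10014 in TAg. Antigen libraries exceeded all untreated ones, and the log2 fold change was 2.25 ± 0.16 (adjusted p = 3.09e-09) in naive and 2.04 ± 0.16 (adjusted p = 1.34e-08) in tolerized cells. Hsp90ab1, the constitutive form, rose by 1.90 and 1.75 on the same scale. Hspa4, an HSP110 family exchange factor, rose by 1.86 and 1.73, with 1854 to 2246 normalized counts over the 6 untreated libraries and 6322 to 8145 over the 6 antigen libraries. Hspa8, the constitutive HSP70, rose by 1.74 and 2.13, with 6695 to 11407 normalized counts over the untreated and 25936 to 36185 over the antigen libraries.

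Hsph1 (HSP105), another exchange factor, varied more among replicates. Its normalized counts were 2427, 1006 and 830.0 in N0, 3273, 3887 and 4925 in NAg, 678, 661 and 1386 in T0 and 5092, 5780.1 and 3045 in TAg. Replicate 1 of N0 and replicate 3 of T0 were high and replicate 3 of TAg was low for their groups, yet no antigen library fell to the level of an untreated one. The log2 fold change was 1.503 ± 0.40 (adjusted p = 0.00519) in naive and 2.35 ± 0.42 (adjusted p = 2.55e-04) in tolerized cells.

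The HSP40 partners did not follow. Dnajb4, a J domain protein of the cytosol, had 303, 339 and 249.9 in N0 and 126, 72.8 and 137 in NAg, and 193, 174 and 169.8 in T0 and 106, 108 and 92.2 in TAg. It fell in both states, with log2 fold changes of -1.40 ± 0.17 (adjusted p = 7.07e-07) and -0.81 ± 0.18 (adjusted p = 6.39e-04) and no overlap of groups. Dnaja1 had 3556, 3256 and 2574 in N0 and 1822, 2042 and 2169.9 in NAg, and 1509.9, 1722 and 2353 in T0 and 3286, 4021 and 2226 in TAg. It fell in naive cells (-0.64) and rose in tolerized cells (0.77), although TAg replicate 3 lay below the highest T0 library. Dnajb1, the HSP40 of the heat shock response, fell from 1419, 1022 and 863 to 536, 542 and 665 in naive cells, a log2 fold change of -0.92 ± 0.23 (adjusted p = 0.00263). In tolerized cells its 597, 655 and 891 in T0 and 925, 1129 and 609.6 in TAg overlapped, with 0.31 ± 0.22 (adjusted p = 0.254). Bag3, an HSP70 co-chaperone that links it to autophagy, passed in neither, with 58.4, 53.2 and 56.5 in N0 and 79.1, 63.4 and 30.8 in NAg, and 81.4, 74.2 and 117 in T0 and 111, 132 and 95.3 in TAg.

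Among the ER genes, the core chaperones rose. Hspa5 (BiP; chr2:34627490-34632051 on NCBIM37, plus strand) had 4620.0, 4183 and 5127 in N0 and 24294, 22698 and 25645 in NAg, and 4209, 3815 and 4519 in T0 and 19195, 18359.5 and 20997 in TAg. These groups lay far apart in both states, with log2 fold changes of 2.38 ± 0.09 (adjusted p = 9.33e-18) and 2.22 ± 0.08 (adjusted p = 5.77e-17). Canx (calnexin) had 3017, 2436 and 2754 in N0 and 8644, 9711 and 10295 in NAg, with 2852, 2940.3 and 2769.9 in T0 and 8541, 8874 and 8872 in TAg, and rose by 1.80 and 1.62 on the log2 scale. Calr (calreticulin) rose by 1.26 and 1.31, Dnajb11, a BiP partner, by 1.19 and 1.25, and Hsp90b1 (GRP94) by 0.71 and 1.17. Smaller rises were those of Hspa13, an ER HSP70 relative, at 0.28 and 0.36, and of Creld2, an ER stress gene, at 0.47 and 0.89. In naive cells the call of Hspa13 was lost without N0 replicate 2 or 3 (range over left-out libraries 0.16 to 0.29) and that of Creld2 without N0 replicate 2 (0.31 to 0.55).

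A J domain gene and 2 isomerases of the ER departed from this. Dnajc3 (p58IPK), a BiP partner and inhibitor of stress kinases, had 1944, 2311 and 2291 in N0 and 588, 429 and 499 in NAg. It had 1656, 1632 and 1768 in T0 and 939, 1118 and 974 in TAg, so it fell in both states, with log2 fold changes of -2.11 ± 0.10 (adjusted p = 8.65e-16) and -0.74 ± 0.09 (adjusted p = 1.34e-07). Of the 7 members with an ER stress element it was the 1 that fell after antigen, and the other 6 rose in both states, as did 26 of all 36 members. Pdia6, a disulfide isomerase, rose by 1.59 and 1.78, while Pdia4 fell in naive cells (-0.85) and did not pass in tolerized cells, at 0.20 ± 0.10 (adjusted p = 0.101). Pdia3 (ERp57), which works with calnexin and calreticulin, fell in naive cells (-0.34) and rose in tolerized cells (0.38).

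**Figure D2:**
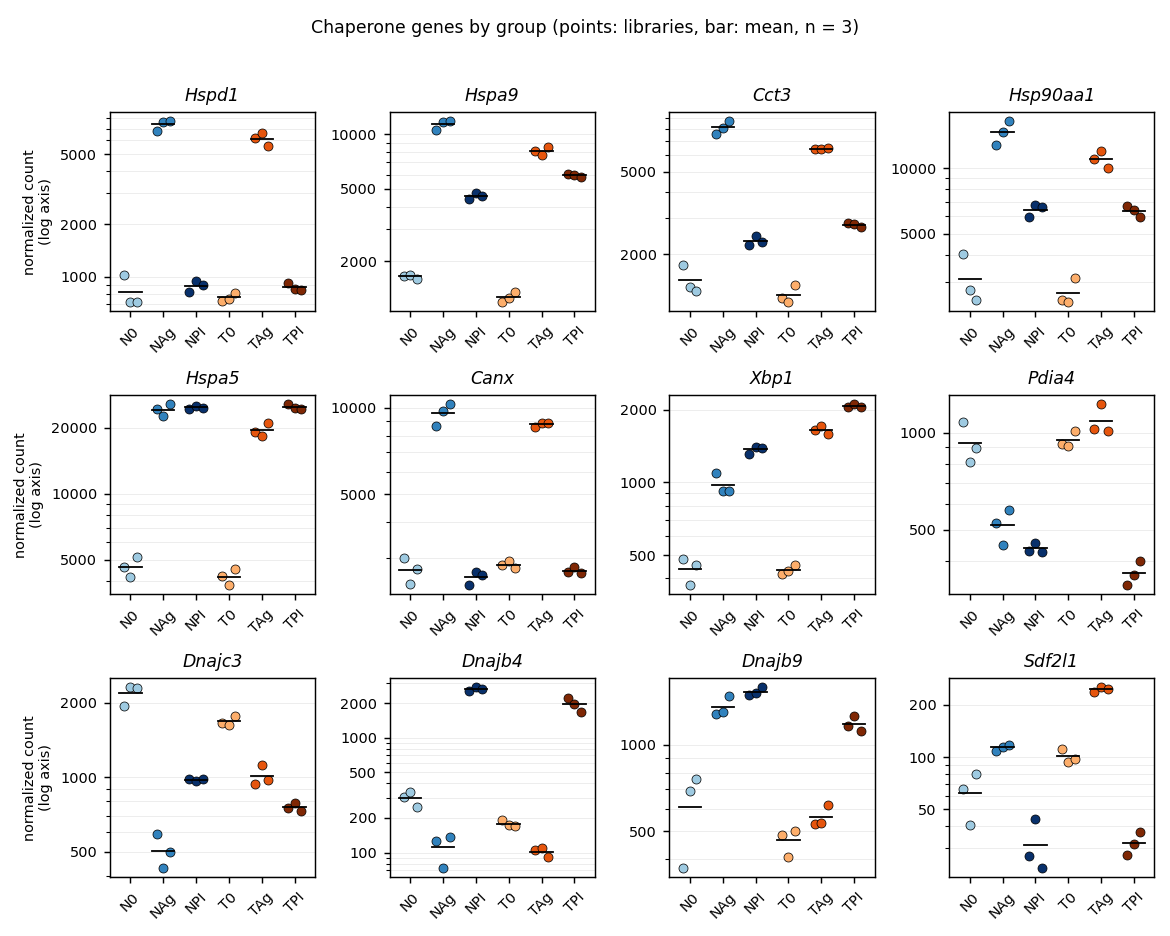
Normalized counts (log axis) of 12 members in the 6 groups, with a point for each of the 3 libraries and a bar at the group mean. Hspd1 and Canx are raised by antigen and lie near the untreated level after PI, Hspa5 is raised by both, Dnajb4 is raised by PI, and Dnajc3 is lowered by each treatment.

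PI gave another pattern. In NPI against N0, 24 members rose and 5 fell, where 28.6% and 32.7% of all genes did, and in TPI against T0, 25 rose and 5 fell, where 32% and 36.3% did. Without N0 replicate 1, 28 members rose and 5 fell in naive cells, and 27 rose, with Hspa1a and Hspa1b added, and 5 fell in tolerized cells. With at least 2-fold change, 11 members rose in naive cells and 15 in tolerized cells, where 15.7% and 18.9% of all genes did. The median log2 fold change of the members was 0.65 in naive cells and 0.95 in tolerized cells, against -0.06 and -0.10 over all genes. The 5 genes that fell, Dnajb11, Dnajc3, Pdia3, Pdia4 and Sdf2l1, were the same in both states, and they all encode ER proteins.

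All 4 HSP40 and BAG genes rose, Dnajb4 the most. Dnajb4 had 2556, 2756 and 2676 in NPI and 2222, 1957 and 1686 in TPI, where the untreated libraries had 169.8 to 339. Its log2 fold changes of 3.16 ± 0.15 (adjusted p = 1.88e-12) in naive and 3.45 ± 0.15 (adjusted p = 5.01e-13) in tolerized cells were the largest of any member that passed with all libraries, and no PI library came near an untreated one. Without N0 replicate 1, Hspa1a at 5.80 (adjusted p = 0.00158) and Hspa1b at 4.07 (adjusted p = 0.00281) had larger rises in naive cells, and Hspa1a at 3.65 (adjusted p = 0.00138) in tolerized cells. Dnajb1 had 4046, 3757 and 3953 in NPI and 2712, 2509 and 2497 in TPI and rose by 1.83 and 1.85. Bag3 had 152, 162 and 197 in NPI and 233, 249 and 229 in TPI and rose by 1.60 and 1.39. Dnaja1 completed the group with 0.78 and 1.05.

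Hspa5 rose with PI too, to 24398, 25262 and 24693 in NPI and 25596, 24715 and 24460.1 in TPI, with log2 fold changes of 2.42 ± 0.09 (adjusted p = 2.68e-17) and 2.58 ± 0.09 (adjusted p = 4.39e-18). Xbp1, whose product is a transcription factor of the unfolded protein response, had 481, 375 and 454 in N0 and 1309.6, 1405 and 1388 in NPI, and 417, 430.1 and 456 in T0 and 2054, 2106 and 2041 in TPI. It rose by 1.65 ± 0.09 (adjusted p = 4.18e-14) and 2.25 ± 0.09 (adjusted p = 5.73e-17) on the log2 scale. Dnajb9 (ERdj4), a BiP partner, had 371, 692 and 759.6 in N0 and 1497, 1519 and 1591 in NPI, and 485, 407 and 503 in T0 and 1162, 1258 and 1119 in TPI, and its log2 fold change was 1.34 in naive and 1.34 in tolerized cells. Without N0 replicate 1, which was low for Dnajb9, these became 1.04 and 1.31. Hspa13 rose by 1.33 and 1.84, and Calr by 1.05 and 0.93, with 2475 to 2982 normalized counts over the untreated and 5030.1 to 5787 over the PI libraries. The counts of these genes are of whole transcripts, and the spliced form of Xbp1 was not analysed here.

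Hspd1, Hspe1 and Canx, which antigen raised in both states, did not pass with PI in either. Hspd1 had 824, 948 and 901 in NPI, against 1025, 723 and 718 in N0, with 0.11 ± 0.11 (adjusted p = 0.373). In tolerized cells it had 919, 856 and 846 in TPI, against 728, 751 and 814 in T0, with 0.19 ± 0.11 (adjusted p = 0.119). Every TPI library thus lay above every T0 library for Hspd1, although the test did not pass. Hspe1 had 435, 525 and 418 and 390.2, 389 and 359 in the PI groups against 578, 334 and 372 in N0 and 386, 379.8 and 347 in T0, with adjusted p values of 0.649 and 0.890. Both rest on N0 replicate 1 in naive cells: without it Hspd1 passed at 0.26 (adjusted p = 0.0140) and Hspe1 at 0.33 (adjusted p = 0.0327). Canx had 2419, 2693 and 2621 in NPI and 2698, 2806 and 2662 in TPI, with -0.086 ± 0.08 (adjusted p = 0.344) and -0.069 ± 0.08 (adjusted p = 0.436). Hspa9, by contrast, rose to 4397, 4743 and 4585 in NPI and 6078, 5976 and 5829.5 in TPI, by 1.47 and 2.24, so the 3 mitochondrial members did not move as one.

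The TRiC subunits rose less with PI than with antigen, by 0.20 (Cct7) to 0.87 (Cct2) in naive cells among the 6 that passed and by 0.43 (Cct8) to 1.12 (Cct2) in tolerized cells for all 7. Cct8 did not pass in naive cells, with 0.17 ± 0.08 (adjusted p = 0.0721), and the call of Cct7 was lost without any 1 of 5 of the 6 libraries, NPI replicate 1 being the exception (0.10 to 0.23). Cct2 had 3699.9, 3981 and 3889 in NPI and 4013, 3838 and 3628 in TPI, against 1619 to 2116 in the untreated libraries and 5432 to 7111 in the antigen libraries. The PI libraries thus lay between the other groups without overlap. Hsf1 rose by 0.67 and 0.84, Hsp90aa1 by 1.06 and 1.25, Hsp90ab1 by 0.97 and 0.96, Hspa4 by 0.55 and 0.80 and Hspa8 by 1.08 and 1.002. Hsph1 passed in tolerized cells, at 1.88 ± 0.41 (adjusted p = 0.00121), and not in naive cells, at 0.94 ± 0.40 (adjusted p = 0.0591). That difference between states did not pass, at 0.94 ± 0.57 (adjusted p = 0.292), and without N0 replicate 1 the naive rise passed at 1.53 (adjusted p = 0.00280).

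Of the genes that fell, Sdf2l1, which forms a complex with an ER J domain protein, had 65.4, 40.7 and 80.3 in N0 and 27.04, 43.98 and 22.9 in NPI, and 111, 93.6 and 97.8 in T0 and 27.5, 31.8 and 37.02 in TPI. The highest NPI library exceeded the lowest N0 library, whereas the tolerized groups did not overlap, and the log2 fold changes were -1.01 ± 0.23 (adjusted p = 5.47e-04) and -1.64 ± 0.22 (adjusted p = 3.13e-07). Pdia4 had 1079, 812 and 897 in N0 and 429.6, 456 and 426 in NPI, and 923, 907 and 1014 in T0 and 336, 362 and 400.0 in TPI, with -1.09 and -1.37 on the log2 scale. Dnajc3 changed by -1.16 and -1.16, Pdia3 by -0.38 and -0.60, and Dnajb11 by -0.42 and -0.49. The other isomerase, Pdia6, rose by 0.36 and 0.48, Hsp90b1 rose by 0.31 and 0.43, and Creld2 passed in naive cells alone, at 0.37. The naive calls of Hsp90b1 (without N0 replicate 2 or 3; 0.18 to 0.42) and Creld2 (without N0 replicate 2 or 3 or NPI replicate 2; 0.21 to 0.46) each rested on single libraries, and whether Creld2 differed between states did not pass, at -0.39 ± 0.18 (adjusted p = 0.142).

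**Figure D3:**
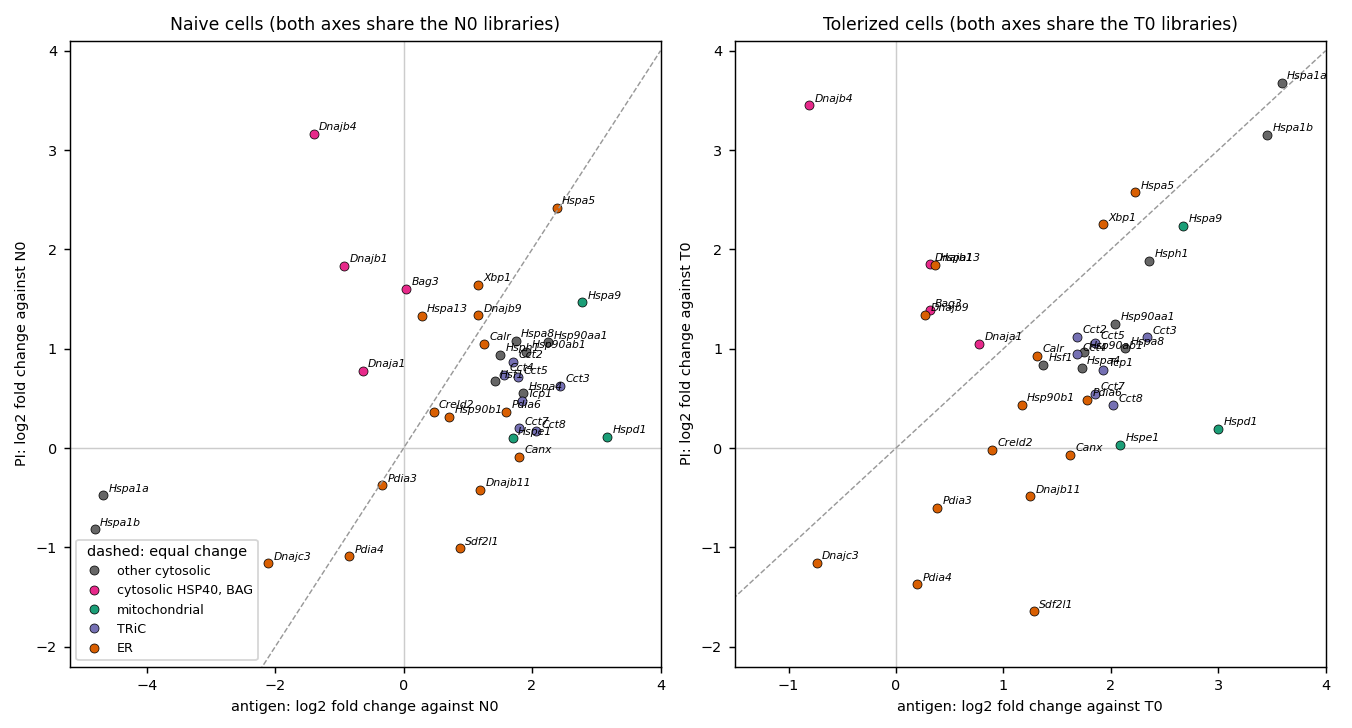
Log2 fold change after antigen (x axis) against that after PI (y axis) for the 36 members, in naive cells (left) and tolerized cells (right), coloured by compartment, with a dashed line where both are equal. Most members lie below the line, and Dnajb4, Dnajb1 and Bag3 lie above it in both panels. Both axes of a panel share the same 3 untreated libraries.

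PI and antigen were then compared directly. In NPI against NAg, 7 members were higher and 21 lower after PI, where 33.5% and 31% of all genes were, and in TPI against TAg, 7 were higher and 25 lower, where 31.5% and 32.3% were. The naive counts without N0 replicate 1 were 10 higher, with Hspa1a (4.22, adjusted p = 0.00113), Hspa1b (4.00, adjusted p = 9.23e-04) and Dnajb9 added, and 22 lower, with Pdia4 added, and the tolerized counts were 7 and 25. The member medians were -0.70 and -0.76 on the log2 scale, against 0.08 and 0.01 over all genes. With all libraries, the 21 lower genes were lower in both states. They include Hsf1 (-0.74 and -0.53), both HSP90 genes, Hspa4, Hspa8, all 3 mitochondrial chaperones and all 7 TRiC subunits. Of the lower members Hspd1 had the widest gap in naive cells, at -3.05 ± 0.11 (adjusted p = 4.31e-16), and -2.81 ± 0.11 (adjusted p = 1.94e-15) in tolerized cells. Sdf2l1 had the widest in tolerized cells, at -2.93, and -1.88 in naive cells. Of the 3 members with a heat shock element, 3 rose with antigen in each state, where 27 and 28 of all 36 members did. Hspd1 and Hspe1 hold the same site. With PI in naive cells, 0 of the 3 passed by edgeR with all libraries, against 3 without N0 replicate 1. In tolerized cells 1 of them, Hsph1, rose with PI. Of the 7 with an ER stress element, 5 rose and 1 fell with PI in naive cells and 4 rose and 1 fell in tolerized cells. Over all 36 members, 24 rose and 5 fell with PI in naive cells and 25 rose and 5 fell in tolerized cells.

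Dnajb1, Dnajb4, Bag3, Hspa13 and Xbp1 were higher after PI in both states. Dnajb4 differed most, by 4.57 ± 0.16 (adjusted p = 1.99e-14) in naive and 4.26 ± 0.16 (adjusted p = 6.83e-14) in tolerized cells, and Dnajb1 by 2.75 and 1.54. Hspa5 did not pass in naive cells, where NAg had 24294, 22698 and 25645, and was higher after PI in tolerized cells, by 0.35. Dnajc3 was higher with PI than with antigen in naive cells (0.95) and lower in tolerized cells (-0.42). NPI and TPI were all male and NAg all female, and culture went with PI, so none of these can be told apart from the agent in naive cells. In tolerized cells, TAg held both sexes.

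The next comparisons ask how tolerance changed the members. In untreated cells, T0 against N0, 2 members were higher and 8 lower, where 8.42% and 12% of all genes were, and no member passed with a 2-fold difference, where 5.06% and 1.13% of all genes did. Without N0 replicate 1, 1 member was higher and 6 were lower: Dnajb9 was added, at -0.65 (adjusted p = 3.89e-05), and Bag3, Dnaja1, Cct4 and Cct5 no longer passed. With all libraries the higher ones were Sdf2l1 (0.70 ± 0.20, adjusted p = 0.0171) and Bag3 (0.69 ± 0.23, adjusted p = 0.0382). The lower ones were Dnaja1 (-0.75), Dnajb4 (-0.73), Hspa9 (-0.39), Dnajc3 (-0.37), Cct5 (-0.31), Tcp1 (-0.27), Cct2 (-0.26) and Cct4 (-0.26). In Hspa9 the 3 T0 libraries, at 1191, 1258 and 1348, all lay below the lowest N0 library, and in Dnajb4 they did too. All 13 neutrophil markers were higher in T0 than in N0, with sums given above, and none of the 10 calls held once the marker scores entered the fit. The log2 differences in that fit were -0.99 for Dnajb4, -0.70 for Dnajc3, -0.51 for Dnaja1, -0.34 for Hspa9, -0.31 for Tcp1, -0.30 for Cct5, -0.30 for Cct2, -0.30 for Cct4, 0.40 for Sdf2l1 and -0.027 for Bag3, so most were near or beyond their size without the scores and Bag3 was near 0. With sex as a covariate 4 calls (Bag3, Dnajb4, Hspa9 and Cct2) held. Leaving out single libraries ended the calls of Bag3 (all but T0 replicate 2; 0.46 to 0.81), Dnaja1 (N0 replicates 1 and 2, T0 replicates 1 and 2; -0.96 to -0.62), Cct4 (N0 replicate 1, T0 replicates 1 and 2; -0.36 to -0.21), Cct5 (N0 replicate 1, T0 replicate 1; -0.42 to -0.23), Sdf2l1 (N0 replicate 2, T0 replicate 1; 0.46 to 0.92) and Tcp1 (T0 replicate 1; -0.37 to -0.18). The calls of Hspa9, Dnajb4, Cct2 and Dnajc3 held without any single library.

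After antigen, TAg against NAg, 10 members were higher and 11 lower, where 20.9% and 18.5% of all genes were, and 12 of 13 neutrophil markers were higher in TAg. With N0 replicate 1 left out of the fit, 13 were higher, with Hspa1a (4.07, adjusted p = 0.00341), Hspa1b (3.85, adjusted p = 0.00289) and Dnajb1 (0.62, adjusted p = 0.0259) added, and 10 were lower, Tcp1 no longer passing. With all libraries the higher members were mostly ER genes. Pdia4 had 526, 448 and 576 in NAg and 1026, 1227 and 1012 in TAg, a log2 fold change of 1.07 ± 0.11 (adjusted p = 3.67e-08) with no overlap. Sdf2l1 had 109, 115 and 118 in NAg and 238, 253 and 247 in TAg, at 1.11 ± 0.19 (adjusted p = 5.64e-05), and Xbp1 had 1092, 916 and 922 in NAg and 1651, 1713 and 1585 in TAg, at 0.76 ± 0.08 (adjusted p = 1.32e-07). These 3 genes, which act in ER folding and its control, were each higher in every TAg library than in any NAg library.

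Dnajc3 was higher in TAg by 0.999 on the log2 scale, Pdia3 by 0.88, Hsp90b1 by 0.50, Creld2 by 0.40 and Pdia6 by 0.29, and the cytosolic Bag3 by 0.97 and Dnaja1 by 0.66. The lower members were Dnajb9, with 1279, 1302 and 1477 in NAg and 529.5, 533 and 616 in TAg (-1.27 ± 0.19, adjusted p = 8.15e-05), Hspa9 (-0.49), Hsp90aa1 (-0.41), Cct3 (-0.34), Hspa5 (-0.31), Hspa4 (-0.29), Cct2 (-0.28), Hspd1 (-0.27), Cct5 (-0.24), Cct8 (-0.24) and Tcp1 (-0.20). Apart from Dnajb9 these were differences under 1.5-fold. The calls of Tcp1 (any of the 6 libraries; -0.21 to -0.17), Hspd1 and Hsp90aa1 (each for NAg replicates 2 and 3 and TAg replicates 1 and 3; -0.33 to -0.21 and -0.50 to -0.32), Cct5 (NAg replicates 2 and 3, TAg replicate 3; -0.29 to -0.19), Cct8 (NAg replicate 3; -0.32 to -0.18), Creld2 (TAg replicate 2; 0.36 to 0.46) and Dnaja1 (NAg replicates 1 and 2, TAg replicate 2; 0.45 to 0.86) were lost when a single library was left out. With the marker scores as covariates 6 members were higher and 5 lower: Hsp90b1, Dnajc3, Pdia3, Pdia4, Xbp1 and Sdf2l1, and Hspa9, Cct2, Cct3, Hspa5 and Dnajb9. The 10 that no longer passed had log2 differences of 0.73 for Dnaja1, 0.57 for Bag3, 0.34 for Creld2, 0.26 for Pdia6, -0.49 for Hsp90aa1, -0.29 for Hspd1, -0.27 for Hspa4, -0.24 for Cct5, -0.23 for Tcp1 and -0.22 for Cct8, each in the direction it had without the scores. With sex as a covariate, Hsp90aa1 (-0.32, adjusted p = 0.108), Hspd1 (-0.22, adjusted p = 0.0982), Tcp1 (-0.15, adjusted p = 0.135) and Cct5 (-0.19, adjusted p = 0.0723) no longer passed.

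After PI, TPI against NPI, 5 members were higher and 4 lower, where 18.2% and 19.7% of all genes were. In the fit without N0 replicate 1, 6 were higher, with Cct7 (0.21, adjusted p = 0.0435) added, and 6 lower, with Dnajb9 (-0.37, adjusted p = 7.90e-04) and Hspa8 (-0.31, adjusted p = 0.0250) added. Both groups were male and cultured, and 9 of 13 neutrophil markers were higher in TPI. With all libraries the higher ones were Xbp1 (0.60 ± 0.08, adjusted p = 2.37e-06), Hspa13 (0.44 ± 0.08, adjusted p = 1.68e-04), Hspa9 (0.38), Cct3 (0.26) and Pdia6 (0.22). Hspa9 was lower in T0 than in N0 and in TAg than in NAg, and here its 3 TPI libraries lay above all NPI libraries. The lower ones were Dnajb1 (-0.61), Dnajb4 (-0.45), Creld2 (-0.42) and Dnajc3 (-0.37). Single libraries decided the calls of Dnajb1 (any of the 6; -0.64 to -0.58), Pdia6 (NPI replicates 1 and 3, TPI replicates 2 and 3; 0.20 to 0.26), Cct3 (NPI replicates 1 and 3, TPI replicate 2; 0.23 to 0.30), Dnajb4 (TPI replicate 3; -0.53 to -0.35) and Creld2 (TPI replicate 2; -0.49 to -0.36). With the marker scores 1 member was higher, Hspa9, and 1 lower, Dnajc3, and the other 7 kept their direction, at -0.62 for Dnajb4, -0.51 for Dnajb1, -0.48 for Creld2, 0.36 for Hspa13, 0.32 for Xbp1, 0.18 for Pdia6 and 0.15 for Cct3.

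Whether the response itself differed between states was tested by interaction terms. For antigen, the change was more positive in tolerized than in naive cells for 9 members and more negative for 1, where 14.6% and 7.09% of all genes were. The counts became 7 and 3 without N0 replicate 1, with Hspa1a and Hspa1b no longer passing and with Hsp90aa1 (-0.43, adjusted p = 0.0446) and Hspd1 (-0.34, adjusted p = 0.0369) added. For 4 genes of ER folding and its control the difference was at least 6 times its standard error: Dnajc3 at 1.37 ± 0.13 (adjusted p = 6.75e-08), Pdia4 at 1.05 ± 0.15 (adjusted p = 1.49e-05), Xbp1 at 0.77 ± 0.12 (adjusted p = 4.94e-05) and Pdia3 at 0.72 ± 0.09 (adjusted p = 5.19e-06), all on the log2 scale. In Dnajc3 this was a smaller fall, in Xbp1 a larger rise, and in Pdia3 a rise in place of a fall. Hsp90b1 also rose more in tolerized cells (0.46 ± 0.14, adjusted p = 0.0171), a call lost without TAg replicate 2 (0.33 to 0.57), and Dnajb9 rose less (-0.89 ± 0.26, adjusted p = 0.0268), a call lost without NAg replicate 3, T0 replicate 1 or 3 or TAg replicate 1 or 2 (-1.06 to -0.61). With the marker scores the calls of Dnajc3, Pdia4, Xbp1, Pdia3 and Dnaja1 held and 5 did not, at 9.24 for Hspa1a, 9.19 for Hspa1b, 1.18 for Dnajb1, 0.47 for Hsp90b1 and -0.95 for Dnajb9, differences near or beyond those without the scores.

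Of the cytosolic genes, Dnaja1 (1.41 ± 0.29, adjusted p = 0.00315) and Dnajb1 (1.23 ± 0.32, adjusted p = 0.0136) differed in their antigen response. In both, TAg replicates 1 and 2 (female) lay above TAg replicate 3 (male), at 3286, 4021 and 2226 for Dnaja1 and 925, 1129 and 609.6 for Dnajb1. T0 replicate 3, the female library of T0, was the highest of its group for both, at 2353 and 891. With sex as a covariate the interactions still passed, at 1.19 for Dnaja1 (adjusted p = 3.78e-05) and 1.01 for Dnajb1 (adjusted p = 0.00438). Within groups, sex differed only in T0 and TAg, so that fit cannot tell sex from single libraries that stand apart.

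For PI, the change was more positive in tolerized cells for 8 members and more negative for 0, where 12.7% and 7.52% of all genes were. The count of 0 was also that of DESeq2, and 2 members, Creld2 and Pdia3, had a more negative change at an unadjusted edgeR p under 0.05. The counts without N0 replicate 1 were 4 and 0. The 8 were Hspa9 (0.77 ± 0.10, adjusted p = 3.00e-06), Xbp1 (0.61 ± 0.12, adjusted p = 6.12e-04), Hspa13 (0.51 ± 0.12, adjusted p = 0.00439), Cct3 (0.49 ± 0.12, adjusted p = 0.00661), Cct5 (0.35), Cct7 (0.35), Tcp1 (0.31) and Hspa4 (0.25). Hspa9, Tcp1 and Cct5 had been lower in T0 than in N0, and none of these 3 passed as lower in TPI than in NPI. Cct3 had 2229, 2452 and 2289 in NPI and 2819, 2802 and 2701 in TPI, so that every TPI library was above every NPI library. Calls for Hspa4 (0.24 to 0.33), Tcp1 (0.24 to 0.42) and Cct7 (0.30 to 0.49) were each lost without any 1 of 8 of the 12 libraries, N0 replicate 1, NPI replicates 1 and 3 and T0 replicates 1 and 2 among them, and that of Cct5 (0.28 to 0.47) without any 1 of 7, whereas those of Hspa9, Xbp1, Hspa13 and Cct3 held without any single library. These 4 also held with the marker scores and with sex as a covariate. Xbp1 was the 1 member that passed both interactions.

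**Figure D4:**
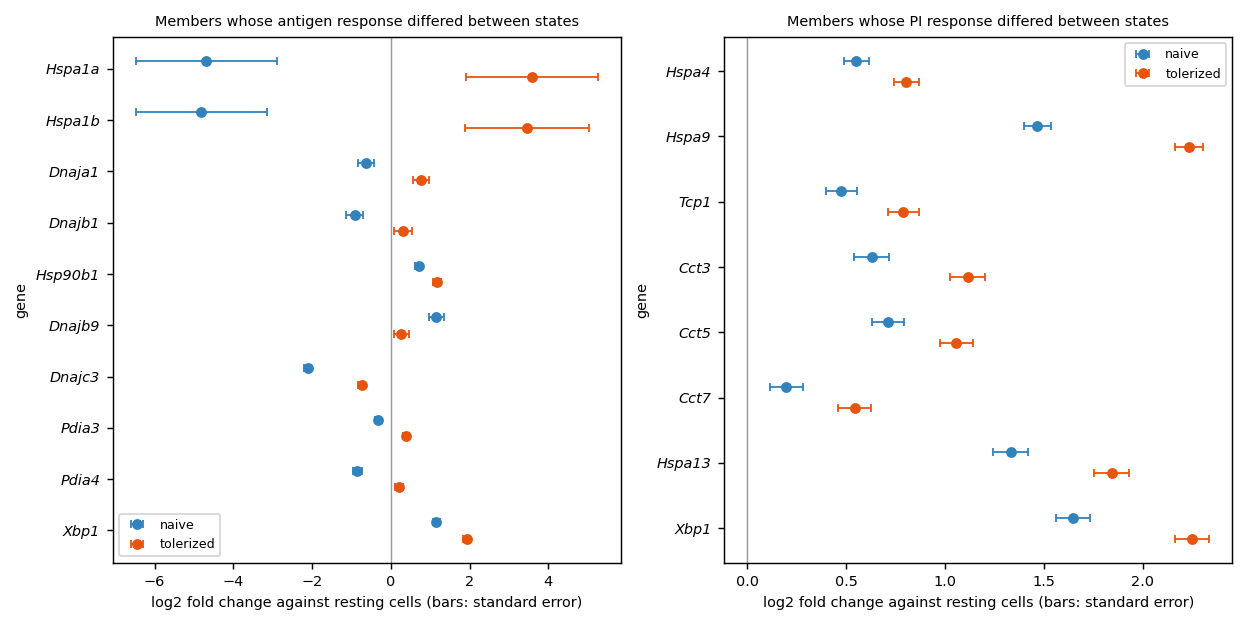
Log2 fold change ± standard error in naive and in tolerized cells for the members that passed an interaction test, 10 for antigen (left) and 8 for PI (right), each with 3 libraries per group. For antigen, Dnajb9 is the member whose change is more positive in naive cells, and the wide bars belong to Hspa1a and Hspa1b.

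The stress-inducible HSP70 genes Hspa1a and Hspa1b were the outliers of the set. Hspa1a had 390.3, 3.13 and 0 in N0, 2.397, 4.699 and 7.699 in NAg, 93.6, 104 and 86.6 in NPI, 7.08, 6.18 and 7.67 in T0, 95.8, 156 and 7.17 in TAg and 96.1, 90.00 and 84.9 in TPI. Hspa1b had 832, 14.6 and 3.97 in N0, 4.79, 10.6 and 14.3 in NAg, 133, 192 and 158 in NPI, 11.5, 15.01 and 12.5 in T0, 174, 244 and 17.4 in TAg and 128, 92.2 and 127 in TPI. A single N0 library thus held the highest value of the series for both genes, and all 6 PI libraries and 2 of 3 TAg libraries lay above the 9 that remain. The same N0 library was also the highest of its group for most other members, Hsph1, Hsp90aa1, Hspd1, Hspe1 and Dnajb1 among them. The exceptions were Dnajb4, Hspa9, Tcp1, Hspa5, Dnajb9, Dnajc3 and Sdf2l1. Over the 36 members its median log2 ratio to the mean of the other N0 libraries was 0.20.

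With that library, antigen lowered both genes in naive cells, at -4.68 ± 1.79 (adjusted p = 0.0349) for Hspa1a and -4.81 ± 1.66 (adjusted p = 0.0213) for Hspa1b, and the antigen interaction passed at 8.27 ± 2.45 (adjusted p = 0.0294) and 8.27 ± 2.29 (adjusted p = 0.0213). Without N0 replicate 1, neither held: the naive change became 1.59 (adjusted p = 0.525) and 0.071 (adjusted p = 0.972), and the interaction 1.98 (adjusted p = 0.701) and 3.35 (adjusted p = 0.193). The PI change, which did not pass in naive cells with all libraries (-0.47 and -0.82), then became 5.80 (adjusted p = 0.00158) and 4.07 (adjusted p = 0.00281). In tolerized cells, where that library takes part through the shared spread, the PI change went from 3.67 ± 1.64 (adjusted p = 0.0634) to 3.65 (adjusted p = 0.00138) for Hspa1a and from 3.15 ± 1.58 (adjusted p = 0.0947) to 3.13 (adjusted p = 0.00287) for Hspa1b. The antigen change in tolerized cells went likewise from 3.59 ± 1.67 (adjusted p = 0.0827) to 3.56 (adjusted p = 0.00208) and from 3.45 ± 1.58 (adjusted p = 0.0779) to 3.43 (adjusted p = 0.00174), although TAg replicate 3 stayed near the T0 level for both. Against NAg, TAg and NPI were higher for both genes without N0 replicate 1, as given above, and neither passed with all libraries. The naive antigen call was also lost without any 1 NAg library, over ranges of -5.32 to 1.59 for Hspa1a and -5.44 to 0.071 for Hspa1b, and the interaction of Hspa1a without 9 of 12 libraries and of Hspa1b without TAg replicate 2 (1.98 to 8.88 and 3.35 to 8.87).

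Hspa1a (chr17:35106144-35109069 on NCBIM37, minus strand) and Hspa1b are near-identical neighbours, and 57.4% and 58.5% of their 64-base windows also occur elsewhere in the genome. Hspa1a also shares 552 bases of exon with a gene on the opposite strand, and strand use in counting is not given in the sources used here. Summing both genes gave the same picture, with a naive antigen change of -4.78 (adjusted p = 0.0237) and an interaction of 8.30 (adjusted p = 0.0218) with all libraries.

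**Figure D5:**
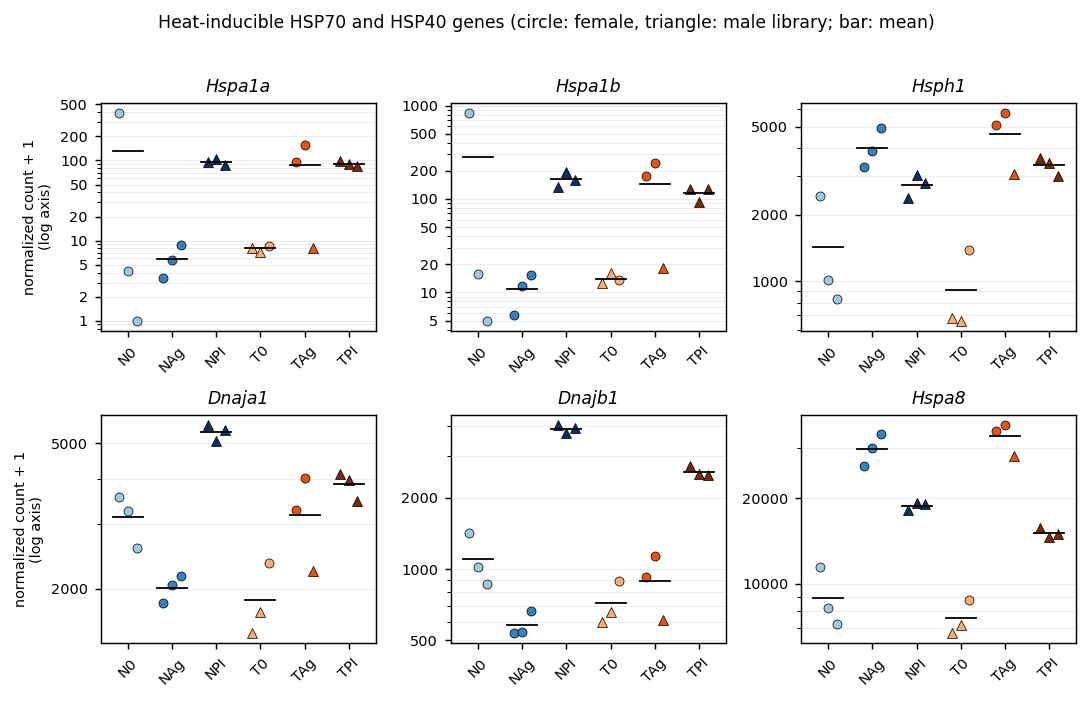
Normalized count + 1 (log axis) of 6 cytosolic heat shock genes in the 6 groups, with a circle for each female and a triangle for each male library. N0 replicate 1 lies far above the other N0 libraries for Hspa1a and Hspa1b, and TAg replicate 3 lies below the other TAg libraries for Hspa1a, Hspa1b, Hsph1, Dnaja1 and Dnajb1.

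Other genes of the same pathways were counted from lists of 96 entries, of which 94 were in the tables and 91 passed the filter. Antigen raised 46 and lowered 22 of the 91 in naive cells and raised 48 and lowered 15 in tolerized cells, where 32.1% and 33.4% and then 29.9% and 29.8% of all genes did. Among 11 HSP90 co-chaperones and 11 other mitochondrial chaperones and proteases, 8 and 7 rose in naive cells and 8 and 9 in tolerized cells. Examples that passed in naive cells, as log2 fold changes with their standard errors, were Cct6a, another TRiC subunit (2.15 ± 0.08), the HSP90 partners Ppid (1.93 ± 0.11) and Stip1 (1.77 ± 0.19), the mitochondrial protease gene Lonp1 (1.72 ± 0.10) and the ER exchange factor Hyou1 (1.72 ± 0.08). The 15 other HSP70 and HSP40 genes and exchange factors had 11 higher and 2 lower in naive cells with antigen, the 10 partners of TRiC 5 and 1, the 25 other ER genes 7 and 11, and the 7 small heat shock and related genes 1 and 2. With PI the mitochondrial list had 2 higher and 6 lower in naive cells, where 28.6% and 32.7% of all genes were, and 2 higher and 7 lower in tolerized cells, where 32% and 36.3% were. The lists are short, and several of these counts, such as those of the 25 ER genes, are near the shares over all genes.

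Of the 12 sensors and effectors of the unfolded protein response, 7 rose and 3 fell with antigen in naive cells, where 32.1% and 33.4% of all genes did. With PI, 10 rose and 2 fell in each state. Of all genes, 28.6% rose and 32.7% fell with PI in naive cells and 32% and 36.3% in tolerized cells. The stress factor gene Atf3 rose by 5.22 ± 0.33 with antigen and 7.51 ± 0.32 with PI in naive cells, and by 3.73 ± 0.29 and 8.06 ± 0.30 in tolerized cells. Chac1, a target of the ATF4 branch, rose by 4.35 ± 0.88 with antigen and 6.21 ± 0.70 with PI in naive cells. Hspa4l, an HSP110 relative, rose by 2.25 ± 0.13 and 3.99 ± 0.14, and Hspa2, another HSP70 gene, by 4.09 ± 0.19 with PI. Directly compared, 9 of the 12 effectors were higher and 3 lower in NPI than in NAg, and 9 of 11 other mitochondrial genes were lower and 2 higher, where 33.5% of all genes were higher and 31% lower.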

How the data were processed

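RNA-seq gene counts of 18 libraries were used as the authors deposited them: raw counts from HTSeq 0.9.1 on reads aligned with TopHat2 2.1.1 to mm9, with Ensembl gene models, per the study's methods and processing notes. Strand use and overlap mode are not given in the sources used here. A row without a gene name, 1 per file, was left out. The median library held 12268940 counts.

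Counts were fitted with edgeR 4.0.16 (R 4.3.3; TMM scaling, robust quasi-likelihood, all 6 groups in 1 model, Benjamini-Hochberg adjustment) over 17240 genes whose mean normalized count reached 3 in 1 or more groups. Interactions were the tolerized change minus the naive change. Each standard error was derived from the test, as the size of the log2 fold change divided by the square root of its F statistic. A gene passed at an adjusted p under 0.05. The script was tested on simulated counts. DESeq2 1.42.0 was an alternative. Levels per kb used the merged exon length of the annotation on the same build, which matched 37205 of 37991 genes.

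The members and lists were chosen with earlier results of these data known. Values per library are given for the member with the largest change in each role and comparison and for outliers by Tukey's rule (1.5 interquartile ranges), and other members by counts and fold changes. Fits without N0 replicate 1 in comparisons that do not use it, and some summaries under the other alternatives, were added after seeing the data.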

Additional observations from a re-analysis of the deposited data

Results flagged for a closer look

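The responses of 17 members differed between naive and tolerized cells by an interaction test in edgeR (adjusted p under 0.05), with Xbp1 differing for both stimuli. Of all tested genes, 14.6% had a more positive and 7.09% a more negative antigen change in tolerized cells. For PI these shares were 12.7% and 7.52%. For antigen the differences in log2 fold change, tolerized minus naive, were 8.27 ± 2.45 (adjusted p = 0.0294) for Hspa1a, 8.27 ± 2.29 (adjusted p = 0.0213) for Hspa1b, 1.41 ± 0.29 (adjusted p = 0.00315) for Dnaja1, 1.37 ± 0.13 (adjusted p = 6.75e-08) for Dnajc3, 1.23 ± 0.32 (adjusted p = 0.0136) for Dnajb1, 1.05 ± 0.15 (adjusted p = 1.49e-05) for Pdia4, 0.77 ± 0.12 (adjusted p = 4.94e-05) for Xbp1, 0.72 ± 0.09 (adjusted p = 5.19e-06) for Pdia3, 0.46 ± 0.14 (adjusted p = 0.0171) for Hsp90b1 and -0.89 ± 0.26 (adjusted p = 0.0268) for Dnajb9. The Hspa1a and Hspa1b values rest on N0 replicate 1 and were 1.98 (adjusted p = 0.701) and 3.35 (adjusted p = 0.193) without it. The calls of Hsp90b1 and Dnajb9 were lost when single libraries were left out. With the marker scores in the edgeR fit, Hsp90b1 (adjusted p = 0.0836), Dnajb9 (adjusted p = 0.104) and Dnajb1 (adjusted p = 0.0664) did not pass.

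For PI they were 0.77 ± 0.10 (adjusted p = 3.00e-06) for Hspa9, 0.61 ± 0.12 (adjusted p = 6.12e-04) for Xbp1, 0.51 ± 0.12 (adjusted p = 0.00439) for Hspa13, 0.49 ± 0.12 (adjusted p = 0.00661) for Cct3, 0.35 ± 0.12 (adjusted p = 0.0365) for Cct5, 0.35 ± 0.12 (adjusted p = 0.0404) for Cct7, 0.31 ± 0.11 (adjusted p = 0.0464) for Tcp1 and 0.25 ± 0.09 (adjusted p = 0.0476) for Hspa4. The 4 PI values at or under 0.35 were lost when single libraries were left out.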

How the results depend on the processing

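The alternatives were DESeq2, its size factors within edgeR, no filter, the compared groups alone, a replicate block, sex or the erythroid and myeloid marker scores as covariates, and each library of the compared groups left out in turn. DESeq2 and its size factors lost none of the calls among named results. Calls were lost in 4 results without the filter, 20 with the compared groups alone, 18 with sex, 56 with the marker scores and 122 of the leave-one-out fits; the cause was not tested. With the marker scores, members higher and lower in T0 against N0 fell from 2 and 8 to 0 and 0, in TAg against NAg from 10 and 11 to 6 and 5, in TPI against NPI from 5 and 4 to 1 and 1, members lower in NPI against N0 from 5 to 3, and antigen interactions from 9 and 1 to 5 and 0 and PI interactions from 8 to 5 more positive. With sex they were 1 and 3 in T0 against N0, 7 lower in TAg against NAg, and 4 and 1 for the PI interaction. With the compared groups alone 3 were lower in T0 against N0, 9 higher and 10 lower in TPI against NPI, 0 more negative in the antigen interaction and 4 and 1 in the PI interaction. Without the filter the antigen interaction had 0 more negative.

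Over the fits that left out 1 library of the compared groups, or N0 replicate 1 from any comparison, members higher and lower ranged from 0 to 2 and 4 to 13 in T0 against N0, 25 to 27 and 6 to 8 in NAg against N0, 28 to 31 and 2 in TAg against T0, 8 to 13 and 6 to 11 in TAg against NAg, 21 to 28 and 5 to 6 in NPI against N0, and 3 to 6 and 2 to 6 in TPI against NPI. The interactions ranged from 6 to 10 and 0 to 3 for antigen and 4 to 11 and 0 for PI. TPI against T0 had 25 to 27 and 5, NPI against NAg 7 to 10 and 20 to 22, and TPI against TAg 7 and 25 in each fit.

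Direction turned in few results. Over the left-out libraries, and with the far end each time without N0 replicate 1, Hspa1a and Hspa1b ranged from -4.81 to 2.098 and -5.02 to 0.49 in T0 against N0, -5.32 to 1.59 and -5.44 to 0.071 in NAg against N0, -1.11 to 5.80 and -1.45 to 4.07 in NPI against N0, and -2.16 to 4.75 and -0.94 to 4.57 in the PI interaction. In NPI against N0, Hspa1a became 1.38 with the marker scores and 2.103 with sex, and Hspa1b 1.02 and 1.37. Bag3 in T0 against N0 became -0.027 with the marker scores. Hspd1 in NPI against N0 ranged from -0.019 to 0.26, with its values below 0 without N0 replicate 2 or 3.

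Replicate numbers did not pair the libraries: of 45 same-number pairs, 2 had correlated deviations over 0.1 (range -0.20 to 0.11), and in 11 of the 45 the same number gave the best correlation. With the replicate block, 1 member was higher in T0 against N0, Hspa1a became 0.23 in NPI against N0, and 9 calls were lost.

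Limits: 3 libraries a group, and PI, culture and male sex coincide in naive cells. Reads of near-identical or overlapping genes cannot be assigned with certainty.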

Other observations

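The other ER genes of the pathway lists moved in both directions. Cnpy2, an ER resident gene, fell with PI in naive cells (-2.08 ± 0.16 as a log2 fold change), while Herpud1, of ER-associated degradation, rose (1.95 ± 0.10). Ero1l, the oxidase that recharges disulfide isomerases, rose with antigen in naive cells (1.89 ± 0.09), as did the sensor gene Atf6 (2.53 ± 0.11). In tolerized cells antigen raised Hyou1 (1.91 ± 0.08) and Cct6a (2.26 ± 0.08), and PI raised Dnajb2, an HSP40 gene (2.81 ± 0.13), and Hspa4l (5.05 ± 0.14).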
